A study of Rattus norvegicus with 6 samples.

Results

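The chemokines and their receptors were examined in 6 samples of whole newborn rat ovaries kept in organ culture. The genes were those with a symbol of the Ccl, Cxcl, Ccr, Cxcr, Cx3c, Xcl or Xcr families in the array annotation, which gave 50 genes with 1 probe set each, 33 ligands and 17 receptors, of 14324 named genes and 27342 probe sets. The samples were 3 pools cultured for 24 h with human connective tissue growth factor (CTGF) at 500 ng/ml and 3 pools cultured for 24 h without treatment. Each pool held 2 to 3 ovaries from female Sprague-Dawley pups that were 0 days old, different pups of the same litter cultured in 1 well. Culture batches 1, 2 and 3 each gave 1 CTGF pool and 1 control pool, which form a pair with that number. The p-values therefore rest on the spread of the differences within these 3 pairs of pools. Those of limma also borrow spread from all other probe sets. Because the tissue was the whole ovary, fewer cells of a type and less RNA per cell cannot be told apart.

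Chemokines are small secreted proteins that direct the movement of cells, and they are grouped by the spacing of their first cysteines into CC, CXC, CX3C and XC ligands. They act through receptors that couple to inhibitory G proteins, while atypical receptors such as Ackr3 bind and remove them without this coupling. In the gonad Cxcl12 and its receptor Cxcr4 guide the migration of primordial germ cells, as known from the mouse, and most other members recruit leukocytes to tissue. CTGF, a secreted protein of the extracellular matrix, was the treatment in a study of how oocyte nests break down into primordial follicles.

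Signals are un-logged RMA signals of the array, given for the 3 CTGF arrays and then for the 3 control arrays in the order of culture batches 1, 2 and 3, and differences are CTGF minus control on the log2 scale. The array medians lay between 5.82 and 5.84 on the log2 scale. For every probe set, averaging the CTGF and the control array of a batch gave the same level in all 3 batches to within 0.005. A gene that was higher in all 3 pairs therefore also had CTGF and control arrays that did not overlap, and the SD over the arrays of a group leaves out the spread between culture dates. To set a level for background, 39 measured genes of other organs, such as lens, retina, pancreas, kidney and lung, served as genes that the ovary should not use (silent tissue genes), and a signal of 64.4, the 95th percentile in this list, was taken as background. Defining markers of the ovary were above this level, with 7 of 7 measured germ cell genes (Ddx4 at 653 and Dazl at 914) and 9 of 9 measured somatic genes (Wt1 at 1003 and Amhr2 at 877). Foxl2, Nr5a1, Pecam1 and Kdr had no named probe set.

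Chemokine ligands were detected in the cultured ovary more often than their receptors. Of the 33 ligands, 13 had a mean signal above the background level, and of the 17 receptors 1 did, which was Cxcr4. Among all probe sets 47.7% lay above it. The 13 ligands were Ccl2, Cxcl16, Cxcl6, Ccl12, Cxcl13, Cxcl1, Cxcl12, Ccl7, Ccl20, Cxcl10, Cx3cl1, Ccl5 and Ccl11. The median signal was 53.1 for the ligands and 22.9 for the receptors, beside 20.9 for the silent tissue genes. With the level lowered to their 75th percentile, a signal of 28.9, 28 of the 50 genes lay above it, against 14 with the higher level. Signals of different probe sets also depend on their probes and are not amounts of transcript, so a gene below the level is one whose direction cannot be read above background, not one that is absent.

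**Figure D1:**
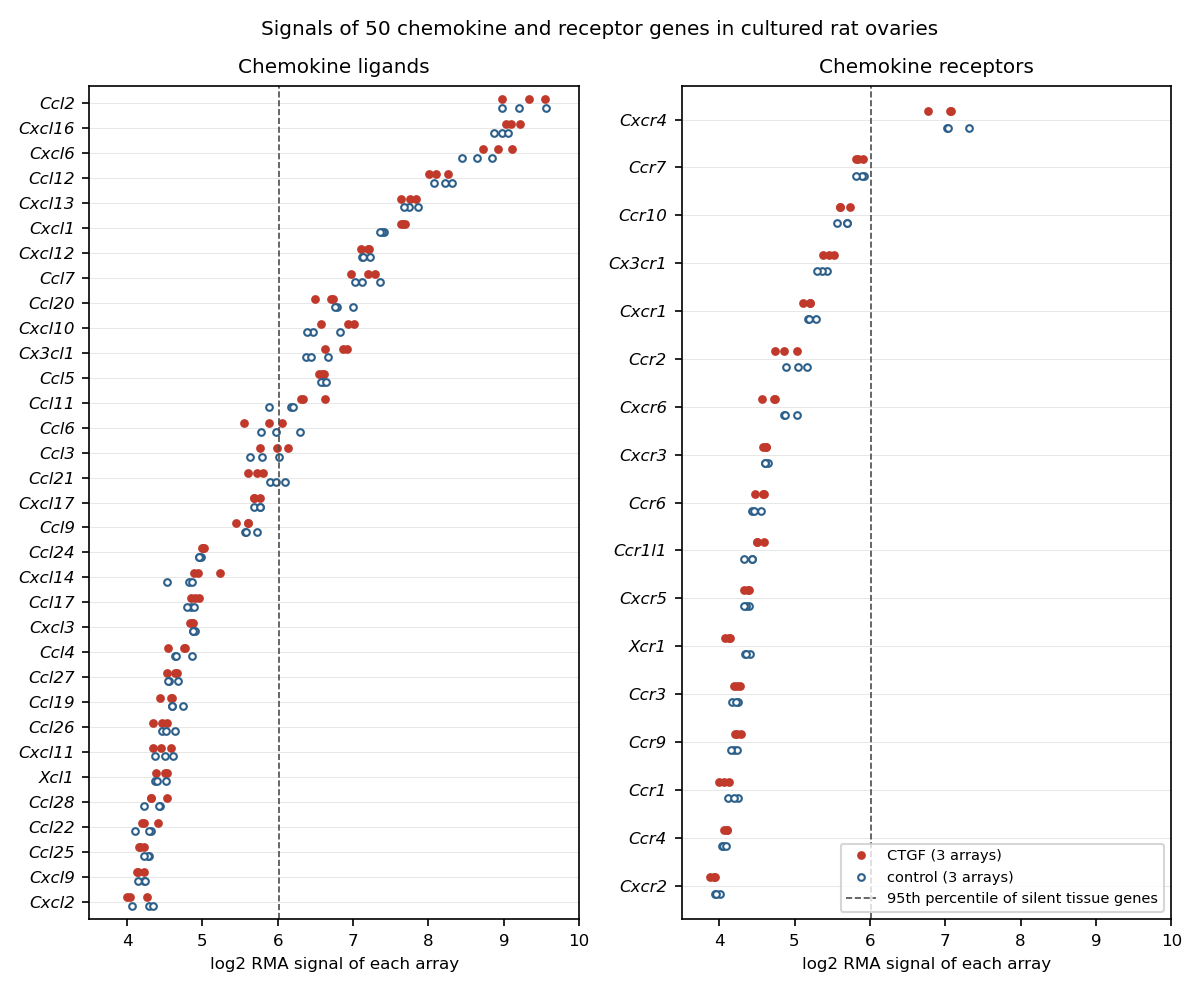
Log2 RMA signal (horizontal axes) of each of 33 chemokine ligands (left panel) and 17 receptors (right panel) on the 3 CTGF arrays (filled red) and the 3 control arrays (open blue), one row a gene. The background level (dashed line, 6.01) is passed by the means of 13 ligands and of Cxcr4 alone among the receptors.

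CTGF and control ovaries were compared to ask whether the treatment altered these transcripts within 24 h. No gene of the group, and no probe set on the array, passed an adjusted p of 0.05 (0 of 50 and 0 of 27342, or 0% called, in limma with Benjamini-Hochberg adjustment, smallest adjusted p = 0.994). Without adjustment, limma gave p under 0.05 for 6 of the 50 genes (12%) and for 3.35% of all probe sets. Cxcl1, Cx3cl1 and Ccl11 were higher with CTGF, where 1.45% of all probe sets were called, and Ccl21, Cxcr6 and Xcr1 were lower, where 1.89% were. The 3 called higher lay above background, and the 3 called lower lay below it, where a direction cannot be read. In the 2-way test of the study's methods, which does not borrow spread from other probe sets, 2 of the 50 were called, Cxcl1 and Xcr1, or 4%, against 4.20% of all probe sets. The 50 genes divided into 23 with a mean above control and 27 below, and their median difference was -0.01, beside -0.00333 over all probe sets. Of the 50, 5 were higher in all 3 pairs (10%, against 9.41% of all probe sets) and 5 were lower in all 3 pairs (10%, against 10.9%), shares near those of the whole array. With 3 pairs, an exact sign-flip permutation test of a single gene cannot give a two-sided p below 0.25.

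**Figure D2:**
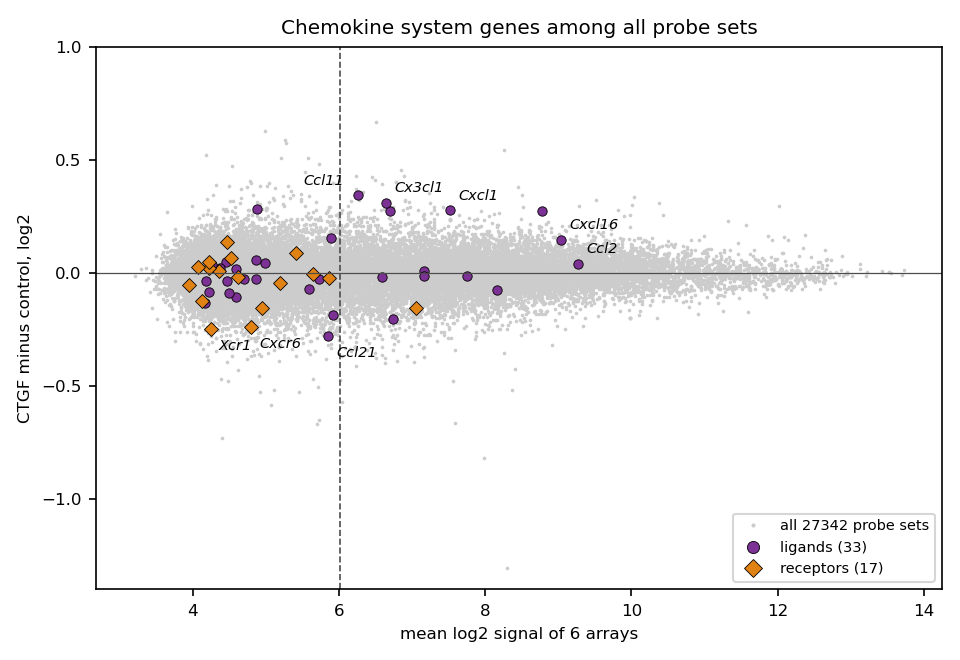
Mean log2 difference of the 3 pairs, CTGF minus control (vertical axis), plotted over mean log2 signal (horizontal axis, 6 arrays) for all 27342 probe sets (grey), chemokine ligands (purple circles) and receptors (orange diamonds). The 50 genes lie between -0.28 (Ccl21) and 0.34 (Ccl11), and the dashed line marks background.

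The CXC ligands that carry a glutamate-leucine-arginine motif before their cysteines, and which attract neutrophils through Cxcr2, were represented by Cxcl1, Cxcl2, Cxcl3 and Cxcl6. These 4 genes are neighbours on rat chromosome 14. Cxcl1 had signals of 198, 202 and 206 with CTGF, against 170.1, 167 and 164 in control ovaries. All 3 CTGF arrays were above all 3 control arrays, as for 9.41% of all probe sets. The signals were 202 ± 4.21 with CTGF and 167 ± 2.92 in control ovaries (SD, n = 3 each). These SDs mirror each other because the batch means are equal, and are not independent. The difference was 0.28 (standard error 0.06, 95% interval 0.12 to 0.43), and 0.22, 0.28 and 0.33 in pairs 1, 2 and 3 (unadjusted p = 0.00484, limma). It was called at an unadjusted p under 0.05 in each of the 9 alternative fits too. Xcr1, which lay below background, was likewise called in each of those that included it. Those fits reuse the same arrays and are not independent of the reported one. The rank of Cxcl1 by p among the 27342 probe sets was 61. The adjusted p of Cxcl1 in limma was 0.994.

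Cxcl6, the neutrophil chemokine known in the mouse as LIX, had a mean difference of like size, but not in every pair. Its signals were 484, 553 and 425 with CTGF, against 402, 349.7 and 458 in control ovaries, so that the CTGF array was higher in pairs 1 and 2 and lower in pair 3. The difference was 0.27 (standard error 0.14, 95% interval -0.07 to 0.61). Without pair 2 it was 0.08 (unadjusted p = 0.583, limma) and without pair 3 it was 0.465 (unadjusted p = 0.0480, limma), so that its size rested on pair 2. Cxcl2 had signals of 16.4, 16.0 and 19.2 with CTGF, against 19.6, 20.3 and 16.8 in control ovaries, all under 20.9, the middle signal of the silent list, and differences of -0.25, -0.34 and 0.19. The mean for Cxcl2 was -0.13, and it was -0.075, -0.03 and -0.295 without pairs 1, 2 and 3 in turn (unadjusted p = 0.695, 0.851 and 0.0196, limma). Cxcl3 was near its control level in each pair, with differences of 0.00, -0.07 and -0.01 at a signal of 29.2. Of these 4 neighbours, Cxcl1 and Cxcl6 lay above background and Cxcl2 and Cxcl3 below it.

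The upstream sequences of these neighbours are shown because κB sites, which the factor NF-κB binds, are well known upstream of Cxcl1 and Cxcl2. The search used GGG, any 2 bases (NN) and then TTTCC, on both strands and with overlaps allowed, within the 250 bases before the start of each gene, from RefSeq on the GRCr8 build, 1 window a gene. Of the 50 genes 39 had a window, and 6 of these 39 (15.4%) held the motif, namely Cxcl1, Cxcl2, Cxcl6, Ccl20, Ccl9 and Ccr3, against 1.28% of 27457 windows in all. The letters TATAAA, on either strand and anywhere in the 250 bases, were in 11 of the 39 (28.2%) and in 13.1% of all windows. Their position was not required to be that of a TATA box. Cxcl3 had no window. Because Cxcl1, Cxcl2 and Cxcl6 are neighbours of 1 family, the 6 genes with the motif are not 6 independent genes. Ccl20, on chromosome 9 and not a neighbour, is shown too. It lay above background, while Ccl9 and Ccr3 lay below it and are not shown. The windows of Cxcl1 (chr14:17479322-17479571), Cxcl6 (chr14:17596418-17596667), Cxcl2 (chr14:17467256-17467505) and Ccl20 (chr9:91836909-91837158), of which Ccl20 lies on the plus strand and the other three on the minus strand, read as follows from 5′ to 3′, with the motif in capitals.
Cxcl1: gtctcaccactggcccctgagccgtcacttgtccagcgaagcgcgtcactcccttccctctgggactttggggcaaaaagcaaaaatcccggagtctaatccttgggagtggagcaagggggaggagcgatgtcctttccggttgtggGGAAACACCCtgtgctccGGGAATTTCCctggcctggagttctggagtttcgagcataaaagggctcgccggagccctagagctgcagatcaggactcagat
Cxcl6: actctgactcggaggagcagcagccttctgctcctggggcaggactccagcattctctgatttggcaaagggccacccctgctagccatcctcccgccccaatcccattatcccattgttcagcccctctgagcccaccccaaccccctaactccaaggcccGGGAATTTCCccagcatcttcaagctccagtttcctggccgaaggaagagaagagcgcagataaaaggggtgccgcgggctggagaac
Cxcl2: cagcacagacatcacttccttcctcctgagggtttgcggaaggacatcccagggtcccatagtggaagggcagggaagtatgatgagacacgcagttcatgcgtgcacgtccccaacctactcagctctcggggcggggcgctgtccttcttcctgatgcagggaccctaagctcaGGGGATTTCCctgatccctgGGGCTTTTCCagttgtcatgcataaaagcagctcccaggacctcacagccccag
Ccl20: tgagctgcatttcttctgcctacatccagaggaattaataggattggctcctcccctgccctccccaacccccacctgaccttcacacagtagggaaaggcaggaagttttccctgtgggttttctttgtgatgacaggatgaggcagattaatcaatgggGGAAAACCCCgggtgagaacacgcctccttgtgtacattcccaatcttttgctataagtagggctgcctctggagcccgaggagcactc
Cxcl1 and Cxcl6 held the same letters, GGGAATTTCC, at 84 to 75 and at 88 to 79 bases before the start, and Cxcl1 held a further match on the opposite strand at 102 to 93 bases. Cxcl2 held 2 matches, at 74 to 65 and at 54 to 45 bases, and Ccl20 held 1 on the opposite strand at 89 to 80 bases. Of the 3 genes shown that lay above background, Cxcl1 was higher in 3 of 3 pairs, Cxcl6 in 2 and Ccl20 in 0. A match is a description of the letters and does not show binding.

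The CC ligands that attract monocytes through Ccr2, namely Ccl2, Ccl7 and Ccl12, were above background but varied from pair to pair in opposite directions. Ccl2 had signals of 749.6, 505 and 644 with CTGF, against 505, 755 and 588 in control ovaries. The CTGF array was the higher one in pair 1, the lower one in pair 2 and slightly the higher one in pair 3, with differences of 0.57, -0.58 and 0.13 and a mean of 0.04 (standard error 0.20, 95% interval -0.45 to 0.53). Its standard error was the largest of the 50 genes, whose standard errors had a median of 0.08. Ccl7, its neighbour on chromosome 10, had differences of 0.26, -0.38 and 0.08 and a mean of -0.01 (95% interval -0.32 to 0.29). Ccl12 had signals of 307, 274 and 258 with CTGF, against 269, 298 and 317 in control ovaries and differences of 0.19, -0.12 and -0.30. The 2 groups overlapped for all 3 genes.

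The CC ligands that macrophages make in inflammation, among them Ccl3, Ccl4, Ccl5, Ccl6 and Ccl9, held 1 gene above background, Ccl5 at a signal of 96.7. Ccl5 had differences of -0.01, 0.05 and -0.09 and a mean of -0.02 (95% interval -0.18 to 0.14). Ccl3 had 0.51, -0.25 and 0.20 at a signal of 59.6, and Ccl4 0.14, -0.32 and 0.10 at 26.1. Ccl6 had the lowest difference of any of the 50 genes in a single pair, with -0.09, -0.75 and 0.28 at a signal of 61.5. Ccl9 had -0.28, 0.04 and 0.02 at 48.2. No gene of these 5 had the same sign in all 3 pairs.

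The 14 genes above background were mostly higher in pair 1, with 12 higher and 2 lower and a median difference of 0.205, while all 13032 probe sets above background had 6757 higher and 5849 lower there and a median of 0.01. In pair 2 they divided into 8 higher and 6 lower (median 0.035) and in pair 3 into 6 higher and 8 lower (median -0.025), where the medians of all probe sets above background were 0.01 and -0.01, so the direction of pair 1 did not recur. A sign that was positive, negative and positive in pairs 1, 2 and 3 was held by 9 of the 50 genes (18%, against 12.0% of all probe sets). These were Ccl2, Cxcl13, Ccl7 and Cxcl10 above background, and Ccl3, Ccl4, Ccr6, Xcl1 and Ccr9 below it. This was the most frequent sign pattern of the 50 genes and was not a planned count. The patterns with only pair 3 lower and with only pair 3 higher were each held by 16% of the 50 (13.1% and 14.3% of all probe sets). The interleukin Il1b, which induces several of these ligands, had differences of 0.07, -0.47 and 0.35 at a signal of 64.7, and the cytokine Tnf had 0.46, 0.01 and -0.20 at 51.1. The 7 germ cell genes had medians of 0.17, -0.25 and 0.31 in the 3 pairs. Their summed signal was 5772, 5038 and 6023 with CTGF, against 5046, 5784 and 4828 in control ovaries. The 9 somatic genes had medians of 0.10, 0.04 and -0.04 in the 3 pairs. The part of the germ cell and somatic genes in the differences of these ligands was not tested.

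**Figure D3:**
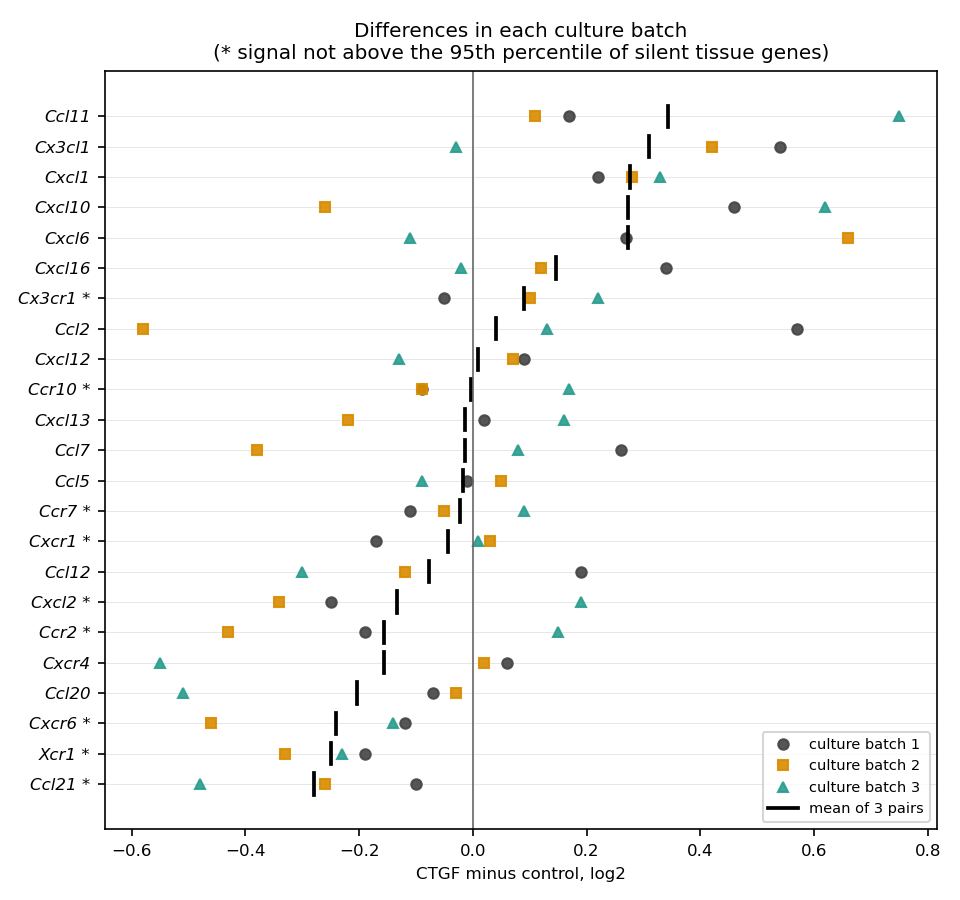
Difference between the CTGF and the control array (horizontal axis, log2) in culture batch 1 (circles), 2 (squares) and 3 (triangles), with the mean of the 3 pairs (black bar), for the 14 genes above background and 9 others described in the text (marked *). Cxcl1 has its 3 points between 0.22 and 0.33, while Ccl2 runs from -0.58 to 0.57.

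Among the interferon-induced ligands of Cxcr3, which attract activated T cells, Cxcl10 was above background and Cxcl9 and Cxcl11 were not. Cxcl10 had signals of 122, 95.01 and 129 with CTGF, against 88.6, 114 and 83.9 in control ovaries. The CTGF array was higher in pairs 1 and 3 and lower in pair 2, with differences of 0.46, -0.26 and 0.62 and a mean of 0.27 (standard error 0.17, 95% interval -0.13 to 0.68). Without pair 2, Cxcl10 was called at an unadjusted p under 0.05 in limma, and it was not without pair 1 or without pair 3. Cxcl9 had differences of -0.09, 0.09 and -0.11 and Cxcl11 of -0.27, -0.05 and 0.21, at signals of 18.2 and 22.3.

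Ccl11, or eotaxin, attracts eosinophils through Ccr3 and had the largest mean difference of the 50 genes. Its signals were 81.0, 79.3 and 99.0 with CTGF, against 72.0, 73.5 and 58.9 in control ovaries. The groups did not overlap, but the pair of batch 3 stood apart, with a difference of 0.75 beside 0.17 and 0.11. The mean was 0.34 (standard error 0.13, 95% interval 0.02 to 0.66, unadjusted p = 0.0387 in limma and 0.235 in the methods' 2-way test), and it was 0.14 without pair 3. With any 1 pair left out Ccl11 was no longer called, with unadjusted p between 0.0892 and 0.136 in limma. Of the other eotaxins, Ccl24 had differences of 0.01, 0.07 and 0.05 and Ccl26 of -0.29, 0.07 and -0.05, at signals of 31.7 and 22.6. The eosinophil genes Prg2 and Epx had signals of 21.7 and 17.9 and Ccr3 had 18.7, all close to the middle of the silent list.

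Cx3cl1, or fractalkine, is a membrane-bound ligand that also serves in adhesion. It had signals of 121, 116 and 99.0 with CTGF, against 83.3, 86.8 and 101 in control ovaries. The CTGF arrays of pairs 1 and 2 were above all control arrays, while pair 3 had nearly equal values, with differences of 0.54, 0.42 and -0.03. The mean was 0.31 (standard error 0.12, 95% interval 0.03 to 0.59, unadjusted p = 0.0361 in limma and 0.216 in the methods' 2-way test). Without pair 1 the difference was 0.195 and without pair 2 it was 0.255, and Cx3cl1 was then no longer called (unadjusted p = 0.292 and 0.261, limma), while without pair 3 it was 0.48. Its receptor Cx3cr1, which marks tissue macrophages and monocytes, had signals of 41.6, 44.0 and 45.9 with CTGF, against 43.1, 41.1 and 39.4 in control ovaries, and differences of -0.05, 0.10 and 0.22 that were not of 1 sign. Cxcl16, another membrane-bound ligand, had signals of 592, 549 and 523 with CTGF, against 468, 505 and 530.1 in control ovaries. The CTGF array was higher in pairs 1 and 2 and nearly equal to control in pair 3, with differences of 0.34, 0.12 and -0.02 and a mean of 0.15 (standard error 0.09, 95% interval -0.06 to 0.36). Without pair 1 the mean of Cxcl16 was 0.05, and without pair 3 it was 0.23.

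Cxcl12, the germ cell guidance ligand, showed no difference beyond its spread. Its signals were 148, 147 and 137 with CTGF, against 139, 140.1 and 150.1 in control ovaries, and the groups overlapped. The difference was 0.01 (standard error 0.07, 95% interval -0.17 to 0.19). Cxcr4 had signals of 135, 133 and 109 with CTGF, against 129.8, 132 and 159.8 in control ovaries. In pairs 1 and 2 the CTGF and control arrays were nearly equal, and in pair 3 the CTGF array was the lower one, with differences of 0.06, 0.02 and -0.55 and a mean of -0.16 (standard error 0.13, 95% interval -0.47 to 0.15). The difference of Cxcr4 was -0.265 without pair 1, -0.245 without pair 2 and 0.04 without pair 3. Ackr3, the atypical receptor that takes up Cxcl12 and was once named Cxcr7, had signals of 407, 437 and 377 with CTGF, against 455, 425 and 488 in control ovaries. The groups overlapped, and its differences were -0.16, 0.04 and -0.37 with a mean of -0.16 (standard error 0.09, 95% interval -0.39 to 0.06), and the mean was -0.265 without pair 2 and -0.06 without pair 3. Both receptors of Cxcl12 thus lay above background, while the other ligands above background had no receptor above it among the 50 genes.

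Ccl20, Ccl21 and Cxcl13, ligands with known roles in lymphoid tissue, differed among themselves. Ccl20, which acts through Ccr6, had signals of 105, 106 and 89.9 with CTGF, against 109.9, 108 and 128 in control ovaries. The CTGF array was lower in all 3 pairs, by little in pairs 1 and 2 and by more in pair 3, with differences of -0.07, -0.03 and -0.51 and a mean of -0.20 (standard error 0.11, 95% interval -0.46 to 0.06). Without pair 3 the mean of Ccl20 was -0.05. Ccl21, a ligand of Ccr7 made by lymphatic endothelium, had signals of 55.7, 52.7 and 48.8 with CTGF, against 59.7, 63.1 and 68.1 in control ovaries, and the groups did not overlap. Its difference was -0.28 (standard error 0.09, 95% interval -0.49 to -0.07, unadjusted p = 0.0183 in limma and 0.126 in the methods' 2-way test), with -0.10, -0.26 and -0.48 in the 3 pairs, at a mean signal below background. Without pair 2 it was -0.29 and without pair 3 it was -0.18, and Ccl21 was then no longer called. The lymphatic endothelial genes Prox1 and Lyve1 had differences of 0.06, 0.11 and 0.37 and -0.32, -0.23 and 0.06, at signals of 53.1 and 97.9. Flt4, another endothelial gene, had 0.46, 0.18 and -0.20 at a signal of 29.6. Prox1 and Flt4 lay below background, where a direction cannot be read. Ccl19, the other ligand of Ccr7 and a neighbour of Ccl21 on chromosome 5, had -0.02, 0.00 and -0.30 at a signal of 24.1. Cxcl13, the B cell chemokine, had signals of 217, 199 and 228 with CTGF, against 214, 232 and 204 in control ovaries and a difference of -0.01 (95% interval -0.23 to 0.20), with groups that overlapped.

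**Figure D4:**
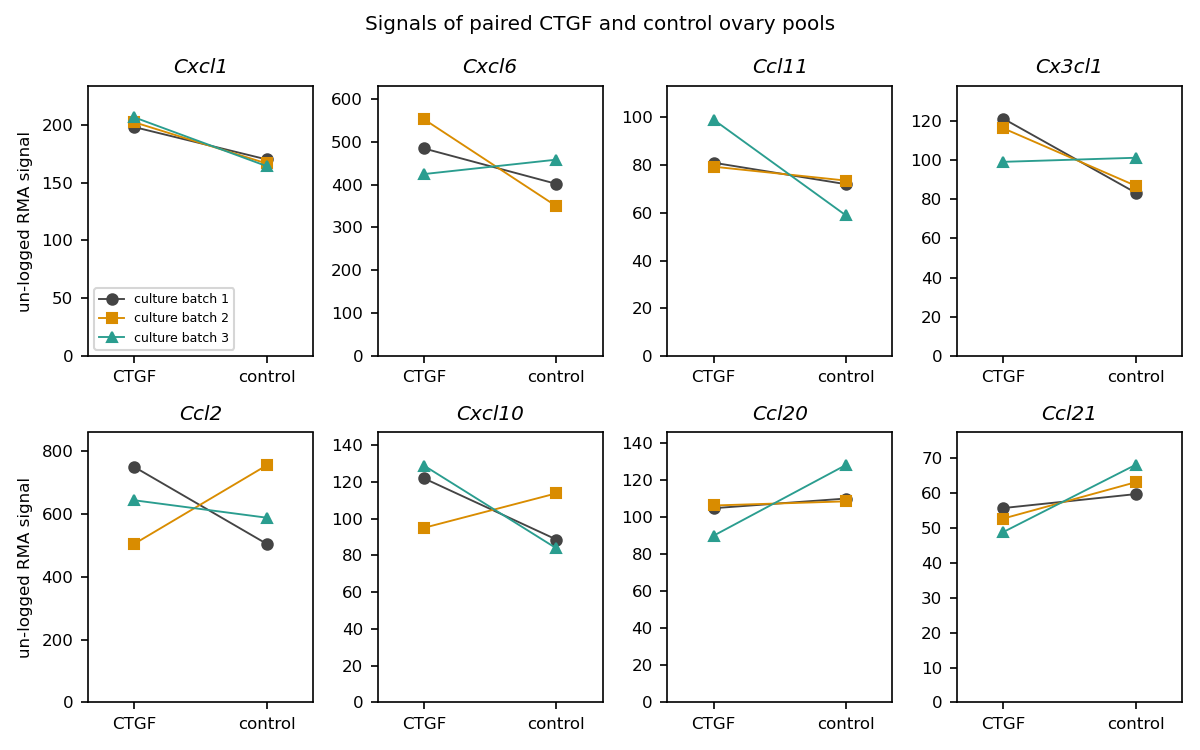
Un-logged RMA signal (vertical axes, from 0) of the CTGF pool (left) and the control pool (right) of each culture batch (lines) for 8 ligands. The lines of Cxcl1 and Ccl11 all lie higher at CTGF and those of Ccl20 and Ccl21 all lower, while those of Cxcl6, Cx3cl1, Ccl2 and Cxcl10 do not all slope one way.

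The other ligands lay below background and their directions cannot be read above it. Cxcl14, a ligand of epithelia, had the highest difference of these, with 0.12, 0.70 and 0.03 in the 3 pairs and a mean of 0.28 (95% interval -0.04 to 0.61) at a signal of 29.7. Ccl25, the thymic and gut ligand of Ccr9, was lower in all 3 pairs with -0.13, -0.11 and -0.01 at a signal of 18.7. The remaining 6 ligands, Cxcl17, Ccl17, Ccl22, Ccl27, Ccl28 and Xcl1, had mean differences between -0.03 and 0.06, and none had the same sign in all 3 pairs.

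Receptor transcripts gave little signal in either group. The 17 receptors divided into 7 with a mean above control and 10 below, with a median difference of -0.02, and 2 of the 16 below background were called at an unadjusted p under 0.05 in limma, both lower, where 1.89% of all probe sets were. Xcr1, a receptor of cross-presenting dendritic cells in the mouse, had signals of 17.8, 16.9 and 17.5 with CTGF, against 20.3, 21.3 and 20.5 in control ovaries. The groups did not overlap, and the difference was -0.25 (standard error 0.07, 95% interval -0.41 to -0.09, unadjusted p = 0.00882 in limma and 0.0266 in the methods' 2-way test), but its 6 values lay near 20.9, the middle signal of the silent list. In that list, Scgb1a1 of the lung airway was the 1 called at an unadjusted p under 0.05, with a difference of -0.24 (standard error 0.07). Xcr1 stayed called without pairs 1, 2 and 3 in turn, with differences of -0.28, -0.21 and -0.26 (unadjusted p = 0.0294, 0.0490 and 0.0376, limma). Cxcr6, the receptor of Cxcl16, had signals of 26.7, 23.8 and 26.5 with CTGF, against 29.0, 32.7 and 29.2 in control ovaries and a difference of -0.24 (standard error 0.09, 95% interval -0.45 to -0.03, unadjusted p = 0.0333 in limma and 0.161 in the methods' 2-way test). With any 1 pair left out Cxcr6 was no longer called, with a difference of -0.13 without pair 2. The genes Xcr1 and Cxcr6 are neighbours on chromosome 8 with Ccr1, Ccr1l1, Ccr2, Ccr3 and Ccr9. These 5 had mean differences of -0.12, 0.14, -0.16, 0.02 and 0.05, and like Xcr1 and Cxcr6 they lay below background.

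Ccr2, the receptor of the monocyte ligands, had signals of 29.0, 26.7 and 32.7 with CTGF, against 33.1, 36.0 and 29.4 in control ovaries, with groups that overlapped and differences of -0.19, -0.43 and 0.15. Ccr7, which guides dendritic and T cells to lymph nodes, had signals of 56.1, 57.3 and 60.1 with CTGF, against 60.5, 59.3 and 56.5 in control ovaries, and Ccr10, a receptor of skin-homing T cells, 48.5, 48.5 and 53.1 with CTGF, against 51.6, 51.6 and 47.2 in control ovaries. Both sets of values overlapped between the groups, with 95% intervals of -0.19 to 0.15 for Ccr7 and -0.20 to 0.19 for Ccr10. Cxcr1 had signals of 34.5, 37.0 and 36.8 with CTGF, against 38.9, 36.3 and 36.5 in control ovaries, and these overlapped too. Cxcr2, the receptor of Cxcl1, had a signal of 15.4 and differences of 0.00, -0.13 and -0.03. The other receptors, Ccr4, Ccr6, Cxcr3 and Cxcr5, had mean differences between -0.02 and 0.07 at signals from 16.8 to 24.5.

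Other genes of the system carry symbols outside these families. Of 26 symbols listed, older names included, 14 genes were measured and 6 lay above background, with 0 passing the adjusted p, 0 higher and 1 lower at an unadjusted p under 0.05 in limma (1.45% and 1.89% of all probe sets). The lower one was Pf4, the platelet chemokine also called Cxcl4, which had signals of 52.7, 52.0 and 50.9 with CTGF, against 56.9, 57.7 and 59.3 in control ovaries and a difference of -0.16 (standard error 0.06). Its mean signal of 54.9 lay below background. Ppbp, the other platelet chemokine, had differences of 0.03, -0.01 and 0.22, and the scavenging receptor Ackr2 -0.12, 0.01 and 0.06. Mif, a cytokine that also binds Cxcr4, had a signal of 811 and a difference of -0.03 (standard error 0.07). Of 25 measured genes that carry the signal of chemokine receptors, such as the inhibitory G proteins, arrestins, Rac and Dock2, 0 were called in either direction at an unadjusted p under 0.05 in limma (3.35% of all probe sets), with a median difference of 0.01. Of 34 measured inducers of chemokines and genes of NF-κB, likewise 0 were called, with a median of 0.03. Nfkbia, an inhibitor and target of NF-κB, had differences of 0.07, 0.09 and 0.01 (standard error of the mean difference 0.06).

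Markers of the cells that make or answer chemokines were set beside these values, with calls at an unadjusted p under 0.05 in limma, which 1.45% of all probe sets had as higher and 1.89% as lower. These lists are short, so that 1 call is already a larger share than either. Among all probe sets, the CTGF and control arrays did not overlap for 9.41% that were higher and for 10.9% that were lower. The 10 measured neutrophil genes had 1 member above background, Lcn2, which epithelia also make, while S100a8, S100a9 and Mpo had signals of 17.5, 20.8 and 20.3. The summed signal of the list was 655 to 690.0 with CTGF and 584 to 614 in control ovaries, and Lcn2 had a difference of 0.22 (standard error 0.07) with 0.21, 0.31 and 0.13 in the 3 pairs. Lcn2 alone carried the sum, since the other 9 genes summed to 177 to 182 with CTGF and 173 to 178 in control ovaries, which overlapped. The 14 macrophage genes, 8 of them above background, summed to 2011 to 2050.0 with CTGF and 2078 to 2122 in control ovaries, 0 of them higher and 1 lower at an unadjusted p under 0.05, C1qa. Without Cd14, the brightest of them, the other 13 summed to 1131.5 to 1224 with CTGF and 1181 to 1279 in control ovaries, which overlapped. The 10 pan-leukocyte genes, 5 above background, summed to 2111 to 2322 with CTGF and 2284 to 2514 in control ovaries. Cd48 made up most of this sum, and the other 9 genes summed to 684 to 737 with CTGF and 743 to 801 in control ovaries, which did not overlap. Tyrobp, below background at a signal of 54.0, was lower at an unadjusted p under 0.05. The 9 eosinophil and mast cell genes summed to 377 to 483 with CTGF and 505 to 685 in control ovaries, 1 of them above background and 3 lower at an unadjusted p under 0.05, the mast cell proteases Cpa3, Cma1 and Tpsab1. Of these, Cma1 and Tpsab1 had signals of 44.9 and 32.0, below background. Cpa3 had differences of -0.14, -0.80 and -1.52, and without it the other 8 genes summed to 209.9 to 243 with CTGF and 240.0 to 281 in control ovaries, which overlapped. The 14 lymphocyte genes, 2 of them above background, summed to 597 to 609.9 with CTGF and 639.7 to 654 in control ovaries. Without Gzmb the other 13 summed to 404 to 414 with CTGF and 420 to 430 in control ovaries, which did not overlap. Only Cd3g of these 13 lay above background, and the median signal of the list was 21.5. Of the 14, 1 was lower, Cd3e, at a signal of 26.8, below background. The 8 endothelial genes summed to 595 to 627 with CTGF and 635 to 676 in control ovaries, 3 above background and 0 called. Without Tek the other 7 summed to 438 to 480 with CTGF and 475 to 526 in control ovaries, which overlapped. The part of these cell types in the differences of Cxcl1, Ccl21, Cxcr6, Xcr1 and the other chemokine genes was not tested, and no marker passed the adjusted p (0.994, limma).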

How the data were processed

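Transcripts were measured on Rat Gene 1.0 ST arrays. The authors used RMA with an adjustment for GC content, run in Partek per the submitters' processing notes and the methods, and deposited log2 values with 2 decimals. In them the culture batch means are equal, a step not described in the sources used here, so deviations of paired arrays correlate at -0.9988, -0.9988 and -0.9991 by construction, and a fit leaves 2 residual degrees of freedom. The labels pair the arrays by culture batch, and the methods block for it. All value columns belong to the 6 samples.

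CTGF minus control was fitted with the empirical Bayes linear model of limma 3.58.1 (R 4.3.3) with batch as a block and prior degrees of freedom of 4.22. No probe set was filtered out, and the Benjamini-Hochberg adjustment ran over all 27342. Names come from the platform annotation (15097 probe sets with 1 symbol, 323 with several, 11922 with none), and all 50 genes matched RefSeq by Entrez number. The procedure was tested on simulated data as a check of the code. That check used independent arrays without equal batch means, so it is no evidence on differences of the size seen here. Every gene may be named. Values of each array are given for Cxcl1, Cxcl2, Cxcl12, Cxcr4 and Ackr3, the 6 ligands and 6 receptors with the highest mean signal, genes at an unadjusted p under 0.05, and up to 4 genes a direction above background with 1 sign in all pairs. For other lists up to 3 genes with the smallest p are named. Cxcl10, the pair differences of further genes and the other marker genes were added after their values were seen. The genes and lists were chosen with earlier results of these data known. Only 3 pairs of arrays limit the precision of every value.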

Additional observations from a re-analysis of the deposited data

How the results depend on the processing

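In all 10 settings 0 chemokine genes and 0 probe sets of those tested passed an adjusted p of 0.05 with limma or the methods' 2-way test. The settings other than the one reported were no replicate block, the methods' 2-way test, quantile normalization, centred array medians, only probe sets above background, the trend and robust options, and each pair left out. At an unadjusted p under 0.05, 6 of the 50 genes were called, 2 with the methods' 2-way test and 3 among the 14 above background, and 3 to 5 without replicate 1, 2 or 3 in turn (3, 3 and 5). The shares of all probe sets tested that were called were 3.35% as reported, 4.20% in the 2-way test, 2.72% above background (21.4% of the 14 genes), and 2.36%, 2.53% and 4.55% without replicates 1, 2 and 3. Without replicate 2 the called genes were Cxcl1, Cxcl10 and Xcr1, and without replicate 3 Cxcl6, Cxcl1, Cx3cl1, Xcr1 and Cxcl2. With no replicate block 9 were called, the 6 and 3 more, with a smallest adjusted p of 0.0609. That fit assumes 4 residual degrees of freedom although the arrays have 2 after the batch means were made equal, and 16.1% of all probe sets were called in it.

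The median difference of the 50 genes, -0.01, was 0 with array medians centred, 0.025 among the 14 genes above background, and between -0.0075 and 0.005 without replicate 1, 2 or 3. Genes of 1 sign in all 3 pairs were 5 higher and 5 lower, and 2 and 1 among the 14 above background. The count above background was 14, and 28 with the level at the 75th percentile of the silent list. With the level at the median of all probe sets it was 18. Ccr10 was at 0.00667 with quantile normalization and at 0.01 with array medians centred, against -0.00333 as deposited. Leaving out 1 replicate in turn gave -0.225 to 0.35 for Ccl2, -0.03 to 0.08 for Cxcl12, -0.08 to 0.02 for Ccr7 and for Cxcr1, -0.09 to 0.04 for Ccr10, -0.10 to 0.09 for Cxcl13, -0.21 to 0.035 for Ccl12 and -0.265 to 0.04 for Cxcr4. With 1 sign throughout, it moved Ackr3 between -0.265 and -0.06, Cxcl16 between 0.05 and 0.23, Ccl20 between -0.29 and -0.05, Cxcl6 between 0.08 and 0.465, Cxcl2 between -0.295 and -0.03, Ccr2 between -0.31 and -0.02 and Cx3cr1 between 0.025 and 0.16. The cause of these changes was not tested. Each gene of the 50 has 1 probe set, so taking every probe set changed nothing.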
